A study of Homo sapiens with 4 samples.

Results

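The 38 genes described here encode the enzymes that load amino acids onto transfer RNAs, the aminoacyl-tRNA synthetases, and the scaffold proteins that hold several of them together. They were chosen by gene symbol from a list of 19 cytosolic synthetases, 16 mitochondrial synthetases and 3 scaffold proteins, and all 38 were found among the 77973 genes of the gene table. All 38 had a mean of at least 5 reads over the libraries and were tested, among 13789 tested genes. Reads per member and library ran from 4 to 314.

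Each synthetase joins an amino acid to its own transfer RNAs, using ATP, before the loaded transfer RNA goes to the ribosome. Separate nuclear genes, most with names that end in 2, encode the enzymes of the mitochondrial ribosome, while KARS1 and GARS1 each encode a form for both compartments. In the cytosol several synthetases sit in a multisynthetase complex around the scaffold proteins AIMP1, AIMP2 and EEF1E1. Many cytosolic synthetase genes are known targets of ATF4, the transcription factor of the amino acid response, and variants in several of them cause inherited neuropathies.

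Polyadenylated RNA was read as long complementary DNA molecules (PacBio Iso-Seq, with MarathonRT as the reverse transcriptase) in cortical neurons made from the KOLF2.1J line of human induced pluripotent stem cells, which is an established line. All 4 groups carried NGN2 under a doxycycline-inducible promoter, which drives neuronal differentiation, and a constitutive dCas9-BFP-KRAB construct, which silences the gene that a guide RNA names. The control and azacytidine groups carried a non-targeting guide. The knockdown and combined groups carried a guide against TARDBP, whose product TDP-43 binds RNA and keeps unannotated (cryptic) exons out of transcripts. The azacytidine and combined groups received 5-azacytidine, which inhibits DNA methylation, at 5 µM for 72 hours. Guides were delivered by lentivirus before differentiation as stable, puromycin-selected pools, and neurons were harvested on day 12 or day 15, with the day of each library not given in the labels. With a single library (n = 1) in every group there is no replicate error, and a test compares the reads of libraries rather than the conditions. Where 4 read numbers of a gene are given together, their order is control, knockdown, azacytidine, combined.

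The libraries held between 466337 and 767621 reads assigned to genes, and between 31.9% and 41.5% of those reads were given to a gene but to none of its transcripts. The targeted gene TARDBP had 104, 72, 73 and 43 reads. Its log2 ratios were -0.78 for knockdown over control (adjusted p = 0.00681, exact binomial test) and -0.73 for combined over azacytidine (adjusted p = 0.0738), so the library pair with azacytidine missed the threshold. Scaled to effective library size (CPM), neuronal markers summed to between 3233 and 3942 in every library. Members of that sum went both ways with azacytidine: log2 ratios without and with the knockdown were 1.64 and 2.30 for RBFOX3 and 0.91 and 1.17 for GAP43, but -0.47 and -1.66 for MAP2 and -0.16 and -1.09 for NEFL. Proliferation markers summed to 1545 and 1317 CPM without azacytidine and to 175 and 174 with it. Neural progenitor markers summed to 1019 and 910 CPM without azacytidine and to 289 and 293 with it. Glial markers summed to 163 and 117 CPM without it and 73.3 and 51.9 with it, and pluripotent cell markers to 682 and 738 CPM against 416 and 535. Azacytidine ratios lay below 0 in both pairs for 5 of 7 tested progenitor, 3 of 4 glial and 4 of 5 pluripotent cell markers. Above 0 in both were MSI1 (0.04 and 0.12), a progenitor marker, and MBP (0.86 and 0.73), a glial one. PAX6 alone held 290 of 613 and 313 of 651 progenitor reads without azacytidine. Fewer cells of a type and less RNA per cell cannot be told apart in such bulk libraries. Many of these markers moved with azacytidine alongside the synthetase results below, and their part in those results was not tested.

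With azacytidine, 7 of 19 cytosolic synthetases rose and 0 of 16 mitochondrial ones were called. A gene was called when its ratio passed 1.5-fold and its adjusted p was under 0.05 in the same direction in both of 2 library pairs that share no library, azacytidine over control and combined over knockdown. By this rule 3.97% of all tested genes rose and 7.51% fell, while no cytosolic synthetase fell. A count of 0 of 16 lies near those shares, and the difference between the classes in called genes was not tested. Of 14 tested proliferation markers, 9 fell by the same rule. The called genes were AARS1, CARS1, GARS1, MARS1, QARS1, SARS1 and WARS1. At a minimum mean of 20 reads, which all 19 met, 5.81% of genes rose. None of the 16 mitochondrial synthetases and none of the 3 scaffold genes was called in either direction; without adjustment, 1 mitochondrial gene higher and 1 lower had p under 0.05 in both pairs of the exact binomial test. In simulated libraries of this size, 2-fold changes with azacytidine were called in 11 of 43 genes with 20 to 100 reads and in 0 of 46 with fewer, so changes of this size could be missed. The median log2 ratio of the cytosolic genes was 0.49 without and 0.75 with the knockdown, that of the mitochondrial genes 0.07 and 0.23, and that of all tested genes 0.01 and -0.03. Ratios lay above 0 in both pairs for 14 of 19 cytosolic genes, 8 of 16 mitochondrial genes and 34.3% of all tested genes.

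**Figure D1:**
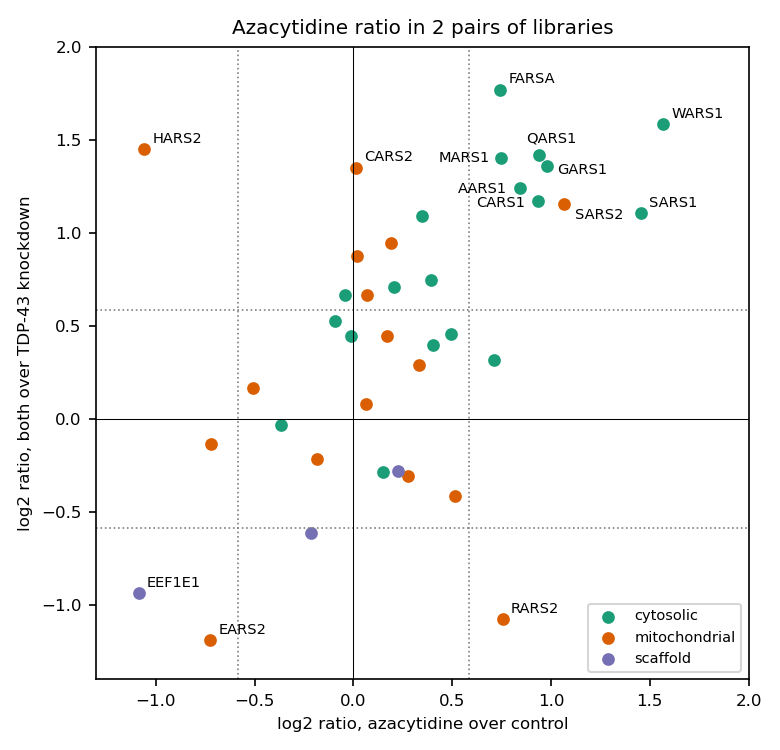
Each point is 1 gene; the x axis is its log2 ratio of azacytidine over control and the y axis its log2 ratio of the combined over the knockdown library, with dotted lines at 1.5-fold. The upper right corner holds 8 cytosolic genes and SARS2, while HARS2 and RARS2 lie in opposite corners.

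WARS1, which loads tryptophan, had 48, 60, 117 and 122 reads. Both libraries with azacytidine lay above both without it. The log2 ratios were 1.57 (95% exact interval 1.08 to 2.09) and 1.58 (1.14 to 2.06), with adjusted p = 1.36e-09 and 1.46e-11 by the exact binomial test. SARS1, which loads serine, had 72, 72, 162 and 105 reads, again with both azacytidine libraries on top. Its log2 ratios were 1.46 (1.05 to 1.88) and 1.11 (0.67 to 1.57), with adjusted p = 1.07e-11 and 5.71e-06 by the exact binomial test. WARS1 and SARS1 were the only members called at 2-fold in place of 1.5-fold.

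AARS1, the alanine enzyme, had 68, 82, 100 and 131 reads, with log2 ratios of 0.84 (0.39 to 1.32) and 1.24 (0.84 to 1.66). MARS1, the methionine enzyme, had 121, 114, 166 and 204, and ratios of 0.75 (0.40 to 1.10) and 1.40 (1.07 to 1.75). CARS1, the cysteine enzyme, had 90, 84, 141 and 128, and ratios of 0.94 (0.55 to 1.34) and 1.17 (0.77 to 1.59). For all 3 the libraries with azacytidine were the higher ones. GARS1, the glycine enzyme, had 52, 43, 84 and 75 reads, and ratios of 0.98 (0.47 to 1.51) and 1.36 (0.81 to 1.95). QARS1, the glutamine enzyme, had 33, 24, 52 and 44, and ratios of 0.94 (0.29 to 1.62) and 1.42 (0.69 to 2.23). Here too both azacytidine libraries were the higher ones. The adjusted p of these 5 genes in the exact binomial test was at most 0.019, the value of QARS1 without the knockdown.

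The calls depended on which reads were counted. In transcript reads alone, 3 cytosolic synthetases passed the rule: SARS1 (log2 ratios 1.56 and 1.51), WARS1 (1.24 and 1.51) and GARS1 (0.81 and 1.02). Of those lost, CARS1 kept ratios of 0.86 and 1.02 there and missed the p (larger adjusted p = 0.0632, exact binomial test). MARS1 had 0.50 and 1.06, AARS1 0.28 and 1.04, and QARS1 0.18 and 0.84, each under 1.5-fold in the first pair. In uniquely assigned reads, which are fewer, SARS1 was the 1 cytosolic synthetase called. The smaller of the ratios there was 1.00 for AARS1, 0.97 for GARS1, 0.91 for WARS1, 0.85 for QARS1, 0.61 for CARS1 and 0.53 for MARS1; all but that of MARS1 passed 1.5-fold and missed the p. An additive edgeR model over the 4 libraries, which takes the interaction of the treatments as its error, called 6 of the 7 and left out QARS1 (adjusted p = 0.0597). By that model 2.55% of all tested genes rose and 6.69% fell. Several genes share exonic bases with a neighbour on the opposite strand, and whether counting used strand is not given in the sources used here. MARS1 shares 355 exonic bases with DDIT3, itself an amino acid response gene, and 519 with ARHGAP9. WARS1 shares 388 with WDR25 and 385 with ENSG00000258666. CARS1 shares 205 with CARS1-AS1 and GARS1 312 with GARS1-DT, so the reads of these 4 genes are uncertain to that extent.

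FARSA, a subunit of the phenylalanine enzyme, passed 1.5-fold in both pairs without passing the p in the first, with 21, 10, 29 and 24 reads. Its ratios were 0.74 (adjusted p = 0.189, exact binomial test) and 1.77 (adjusted p = 0.00318). By fold alone, 8 of 19 cytosolic genes were higher, against 12.2% of all tested genes. KARS1, the lysine enzyme of both compartments, had 35, 27, 33 and 30 reads and ratios of 0.20 and 0.71, neither past the p. The other 10 cytosolic genes not called had ratios without the knockdown between -0.37 and 0.71, the lowest in RARS1 and the highest in IARS1, and ratios with it between -0.28 in TARS1 and 1.09 in YARS1. IARS1 passed the fold and the p in the first pair alone, and YARS1, VARS1 and HARS1 in the second alone. RARS1 lay below 0 in both pairs, at -0.37 and -0.03. Of the 7 cytosolic synthetases in the multisynthetase complex 2 were called, MARS1 and QARS1, and of the 12 outside it 5.

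**Figure D2:**
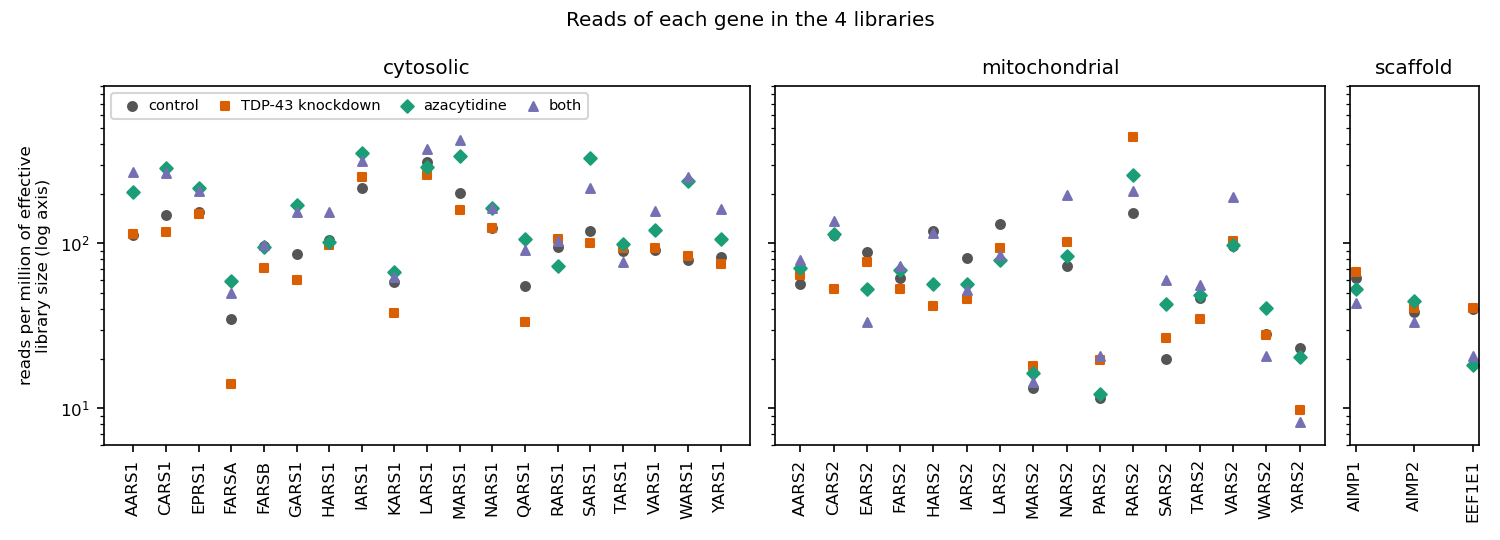
Level of each gene as CPM of effective library size (log axis), by class, with 1 symbol per library. For WARS1, SARS1, AARS1, CARS1, MARS1, GARS1 and QARS1 both libraries with azacytidine lie above both without it, and RARS2 is highest in the knockdown library.

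Among mitochondrial synthetases, 2 passed 1.5-fold in both pairs without passing the p in both. SARS2, the mitochondrial serine enzyme, had 12, 19, 21 and 29 reads, with ratios of 1.07 and 1.15. It shares 1492 exonic bases on its own strand with ENSG00000269547, and only 5, 4, 3 and 7 of its reads had a transcript. EARS2, which loads glutamate in mitochondria, went the other way, with 53, 55, 26 and 16 reads and ratios of -0.73 (adjusted p = 0.111, exact binomial test) and -1.19 (adjusted p = 0.00945). EEF1E1, a scaffold protein, was also lower by fold alone, with 24, 29, 9 and 10 reads and ratios of -1.09 and -0.94. It shares 393 exonic bases on its own strand with EEF1E1-BLOC1S5, and only 12, 3, 6 and 1 of its reads had a transcript. By fold alone, 16.3% of all tested genes were lower. Other mitochondrial genes passed 1.5-fold in single pairs, with ratios given without and with the knockdown. CARS2 (0.01 and 1.35), NARS2 (0.19 and 0.94), VARS2 (0.02 and 0.88) and TARS2 (0.07 and 0.67) were higher in the pair with the knockdown alone. In transcript reads the ratio with the knockdown was 1.03 for CARS2, 0.20 for NARS2, 0.76 for VARS2 and 0.86 for TARS2. LARS2 (-0.72 and -0.14) was lower in the pair without it alone. HARS2 (-1.06 and 1.45) and RARS2 (0.75 and -1.08) changed direction between the pairs.

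The balance of the classes was also read from their summed reads. Cytosolic synthetases took 67.0% of the reads of both classes in the control library (95% Wilson interval 64.9% to 69.0%) and 75.3% with azacytidine (73.5% to 77.1%). They took 62.9% in the knockdown (60.9% to 64.8%) and 72.8% in the combined library (70.9% to 74.5%). Neither pair of intervals overlapped, though such intervals hold counting error alone, as amplified copies are not separate molecules. Leaving out RARS2 changed the second pair: the shares were 72.6% (70.7% to 74.5%) in the knockdown and 75.9% (74.1% to 77.6%) in the combined library, and these intervals overlapped. In transcript reads the shares were 68.1% (control), 71.4% (knockdown), 75.5% (azacytidine) and 75.4% (combined). Intervals of the second pair, knockdown and combined, again overlapped.

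**Figure D3:**
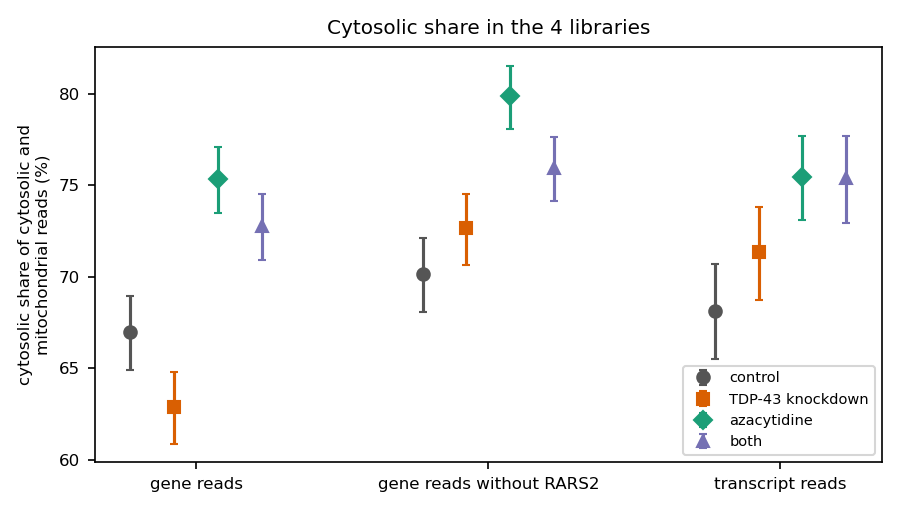
Share (%) of the reads of cytosolic and mitochondrial synthetases that belong to cytosolic ones, with 95% Wilson intervals, for gene reads, gene reads without RARS2 and transcript reads. The knockdown library stands lowest at 62.9% in gene reads and moves to 72.6% without RARS2.

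Genes that act beside the synthetases were read from lists in the same fit. Of 28 tested genes of the amino acid response, 9 rose with azacytidine and 0 fell, against the 3.97% and 7.51% of all tested genes, with median log2 ratios of 0.85 and 1.05. ATF5, a transcription factor of this response, had 8, 7, 65 and 60 reads, and ratios of 3.23 and 3.56. SHMT2, which makes glycine from serine in mitochondria, had 23, 21, 65 and 53. SLC7A5 and SLC3A2, which together form an amino acid transporter, rose with ratios of 1.43 and 1.53 and of 1.40 and 1.40. TRIB3, DDIT4, STC2, MTHFD2 and SLC7A1 were the others called. ATF4 itself had 12, 7, 18 and 11 reads and ratios of 0.85 and 1.15, past 1.5-fold in both pairs with neither past the p. ASNS, the asparagine synthetase, differed between the pairs, with 25, 11, 19 and 66 reads.

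Other parts of the translation machinery were counted by the same rule, against the same 3.97% and 7.51%. Among 14 genes of eIF2, its kinases, phosphatases and other factors that act with them, 1 rose, EIF2B4, a subunit of the exchange factor of eIF2. Of 11 cytosolic elongation and release factors 1 rose, EEF1A2, the elongation factor form of neurons and muscle. Of 18 mitochondrial translation factors 0 were called. Of 30 tested genes of transfer RNA processing, export and quality control 2 rose, DTD1, which removes D-amino acids from transfer RNAs, and MAF1, a repressor of RNA polymerase III. None of these lists had a gene that fell.

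Promoters of the members were searched for the amino acid response element TGATGCAA on both strands, in the 250 bases before each start listed by RefSeq (GRCh38.p14), which holds 33 of the 38 members. It was found in 2 of 21 promoters of cytosolic genes, those of AARS1 and IARS1, and in 0 of 18 of mitochondrial genes, against 0.772% of all 35116 promoters. With its sixth base free, it was also found for GARS1 and for the mitochondrial YARS2, in 3 of 21 and 1 of 18 promoters against 3.14% of all. The core of the interferon-stimulated response element (GAAA, any 2 bases, GAAA) was searched since WARS1 is known to respond to interferon. It was found in 1 of 21 cytosolic promoters, before the downstream start of WARS1, against 3.02% of all promoters. Among mitochondrial genes it was found in 2 of 18 promoters, both of EARS2. These promoters overlap and hold the same site, so by gene it was 1 of 14. The stretches are shown since AARS1 and WARS1 rose, with the match in capitals (TTGCATCA is the element read on the opposite strand), on the minus strand, at chr16:70289675-70289704 for AARS1, chr9:92293698-92293727 for IARS1 and chr14:100375383-100375412 for WARS1. All 3 overlap an annotated exon of their own strand. A match describes these letters and is not a bound site.
AARS1: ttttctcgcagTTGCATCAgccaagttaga
IARS1: cccgcattttcagcgcgTTGCATCAcctcc
WARS1: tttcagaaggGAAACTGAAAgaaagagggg
Transcripts of WARS1 that begin at the downstream start had 16, 12, 44 and 34 reads, and those from the most upstream start 14, 17, 19 and 21. Starts between these had 0, 2, 4 and 7 reads and 5, 3, 6 and 5 reads. As shares of the transcript reads of WARS1, the downstream start held 45.7%, 35.3%, 60.3% and 50.7% in that order, and neither azacytidine difference passed an unadjusted Fisher's exact test (p = 0.214 and 0.204).

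Under the knockdown, 0 of the 38 members were called in either direction, where 0.907% of all tested genes rose and 0.551% fell. With library totals in place of TMM sizes, 72 genes rose and 106 fell, in place of 125 and 76, and again 0 members were called. No member had an unadjusted p under 0.05 in the same direction in both pairs by the exact binomial test, and the additive edgeR model called 0, against 0.058% of all tested genes higher and 0.029% lower. Past 1.5-fold in both pairs without the p were PARS2, higher, with 7, 14, 6 and 10 reads, and YARS2, lower, with 14, 7, 10 and 4. These are the mitochondrial proline and tyrosine enzymes. By fold alone, 5.68% of all tested genes were higher and 6.13% lower. The azacytidine and knockdown ratios over the control library share that library. WARS1 had 1.57 with azacytidine and 0.07 with the knockdown, and SARS1 1.46 and -0.25. For combined over azacytidine, the knockdown ratio was 0.09 for WARS1 and -0.60 for SARS1, the latter past 1.5-fold. Over all members the knockdown ratios ran from -1.49 to 1.52 without azacytidine and from -1.21 to 1.23 with it. NARS2 had 0.48 and 1.23 in that order, VARS2 0.10 and 0.96, and WARS2 -0.02 and -0.94. In transcript reads these ratios were 0.39 and 0.21 for NARS2, -0.18 and 0.33 for VARS2, and -0.68 and -0.69 for WARS2. VARS2 shares 4073 exonic bases on its own strand with ENSG00000288473.

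An unannotated exon of AARS1 was read in the knockdown libraries. Of 3 unannotated exons in members, 2 met the minimums for a comparison (10 reads of the exon and a mean of 20 transcript reads of the gene), as did 168 exons in all, of which 4.76% were called higher and 0% lower with the knockdown. The AARS1 exon reached its 10 reads through the knockdown libraries alone, so its difference was largely fixed by that minimum, and its shares are given as a description with no test. The exon, of 87 bases, lies at chr16:70272796-70272882 (hg38) within the intron between exons 4 and 5 of the 21 exons of ENST00000261772. It was in 0 of 56, 12 of 70, 0 of 60 and 13 of 99 transcript reads of AARS1. The exon appeared in both knockdown libraries and in neither of the others, where a count of 0 allows a share of up to 5.36% and 5.00%. Its share was 17.1% (95% Wilson interval 10.1% to 27.6%) without and 13.1% (7.84% to 21.2%) with azacytidine. Among full-length reads it was in 0, 3, 0 and 6, and among uniquely assigned reads in 0 of 10, 9 of 28, 0 of 21 and 8 of 42. Over all gene reads its smaller change was 9.92 percentage points. The gene itself had log2 ratios of 0.02 and 0.41 with the knockdown.

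The exon of SARS1, of 117 bases, lies at chr1:109221087-109221203 between exons 1 and 2 of the 11 exons of ENST00000234677. It was in 8 of 45, 4 of 31, 10 of 117 and 7 of 61 transcript reads. All 4 libraries held it, at 17.8%, 12.9%, 8.55% and 11.5%, and their Wilson intervals overlapped. The knockdown changes were -4.87 and 2.93 percentage points, with adjusted p = 0.977 and 1 by Fisher's exact test. With azacytidine neither tested exon was called, where 0.595% of all tested exons rose and 0.595% fell. The messenger RNA sequences at which these exons enter are shown, from the GENCODE 29 transcripts, as 30 bases on each side with the codon that is split in capitals.
AARS1: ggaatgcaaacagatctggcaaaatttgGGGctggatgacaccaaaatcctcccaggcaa
SARS1: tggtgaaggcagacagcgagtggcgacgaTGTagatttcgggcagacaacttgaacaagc
The AARS1 exon enters codon 160 after 2 of its bases, and the SARS1 exon codon 46 after 1. Both lengths are multiples of 3; the exons' own bases were not read here, so whether they hold a stop codon was not tested.

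FARS2, the mitochondrial phenylalanine enzyme, held an unannotated last exon of 2015 bases at chr6:5267442-5269456, in a transcript of 2 exons, where ENST00000274680 has 7. The gene had under 20 transcript reads on average, so the exon fell outside the test, and it is named here after its values were seen. It was in 3 of 14, 13 of 18, 2 of 18 and 7 of 15 transcript reads. The knockdown libraries held the higher shares, 72.2% (49.1% to 87.5%) against 21.4% (7.57% to 47.6%), and 46.7% (24.8% to 69.9%) against 11.1% (3.10% to 32.8%). In full-length reads it was 2, 4, 2 and 3. No test is given for an exon chosen by its values.

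**Figure D4:**
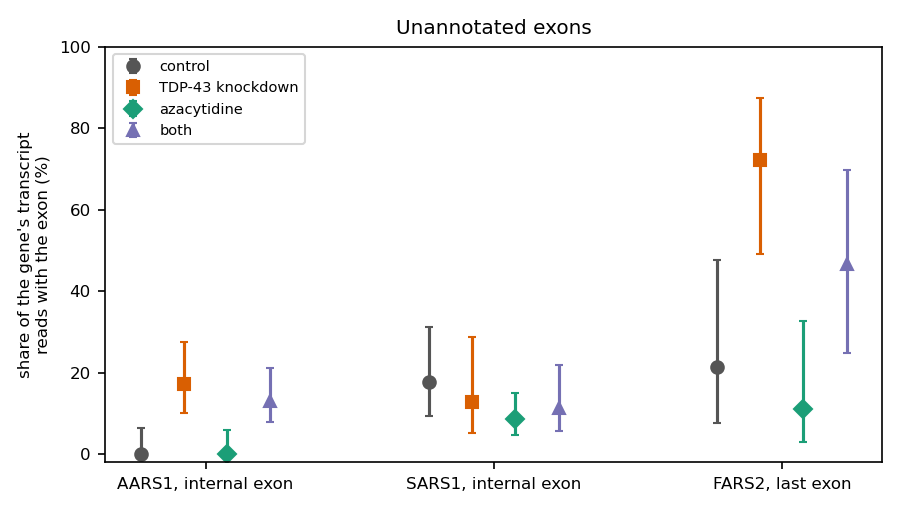
Share (%) of the transcript reads of AARS1, SARS1 and FARS2 that carry the unannotated exon, with 95% Wilson intervals, by library. The AARS1 exon is at 0% without and at 17.1% and 13.1% with the knockdown, and the SARS1 exon is present in all 4 libraries.

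Use of whole transcripts was tested for 74 transcripts in 24 members. With the knockdown, 0.368% of all tested transcripts rose and 0.342% fell. The AARS1 transcript with the unannotated exon was the 1 member transcript past the rule, but it holds the same reads as that exon and entered through the knockdown libraries alone, so this adds no test. With azacytidine 0 were called, against 0.49% and 0.639%. The AARS1 transcript ENST00000261772 had 13, 12, 20 and 43 reads. ENST00000675917, which starts within the gene, had 32, 21, 19 and 18, none of them full-length or uniquely assigned. For SARS1, ENST00000234677 had 24, 13, 71 and 40 reads, ENST00000369923 7, 5, 17 and 7, and the short ENST00000482384 6, 9, 19 and 6. Of the KARS1 transcripts, ENST00000319410 (2421 bases) holds an exon of 180 bases that ENST00000302445 (1991 bases) lacks, and it encodes 625 codons against 597. They also differ in other bases. ENST00000319410 had 10, 8, 13 and 9 reads and ENST00000302445 10, 11, 6 and 7, and neither was called.

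The knockdown ratio of 3 of the 38 members differed between neurons without and with azacytidine by an exact test of the difference, where 6.39% of all tested genes did. That count lies near the share of all genes, so it is no result about the members as a group. All 3 are mitochondrial, and a difference between the classes was not tested. RARS2, the mitochondrial arginine enzyme, had 92, 314, 127 and 100 reads, high in the knockdown library alone. Of these, 55, 60, 70 and 53 had a transcript, so the knockdown library held 254 reads without one. HARS2, the histidine enzyme, had 72, 30, 28 and 56 reads, low in the libraries with either treatment alone, and 29, 19, 22 and 25 of them had a transcript. It shares 1642 exonic bases with ZMAT2 on its own strand and 108 with HARS1 on the other. CARS2, the cysteine enzyme, had 68, 38, 56 and 66 reads, lowest in the knockdown library, of which 42, 14, 28 and 20 had a transcript.

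**Figure D5:**
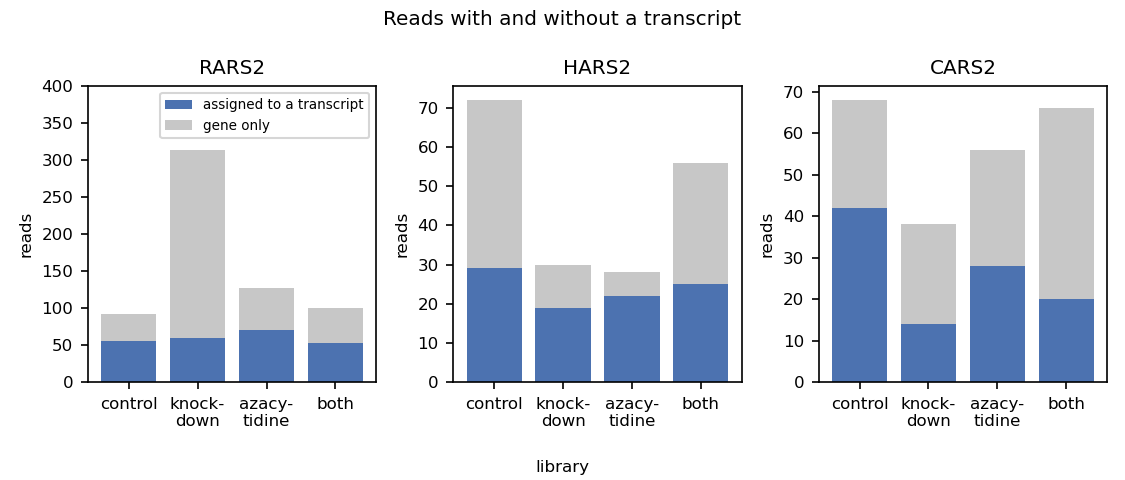
Reads of RARS2, HARS2 and CARS2 in each library, split into those assigned to a transcript and those given to the gene only. The RARS2 bar of 314 reads in the knockdown library holds 60 with a transcript.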

How the data were processed

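Iso-Seq libraries of 4 groups, 1 each, were compared. Alignment was to hg38 with minimap2 and transcripts came from Bambu, per the file headers; versions and settings are not given in the sources used here. The authors deposited estimated counts of reads per gene and per transcript, made with Bambu per the file headers; gene values were all even, so a count of 2 was taken as 1 read and counts were halved and rounded. The design had assumed that each read counts 1. Why values are even is not stated. The deposited transcript counts divide a read among the transcripts it fits. Gene symbols were matched for 60555 of 77186 annotated identifiers.

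For each pair of libraries, the reads of a gene were set against TMM sizes (edgeR 4.0.16) in an exact two-sided binomial test, and p was adjusted by Benjamini-Hochberg over all 13789 genes whose mean was 5 reads or more. Ratios are log2 with a pseudocount of 0.5 and exact 95% intervals. A call needed 1.5-fold and an adjusted p under 0.05 in both pairs. Exons and transcripts were compared by Fisher's exact test among the gene's transcript reads (at least 10 reads, gene mean of at least 20), and a call needed 10 percentage points and an adjusted p under 0.05 in both pairs. The difference of the knockdown ratios was tested by an exact noncentral hypergeometric test. On simulated Poisson counts with known changes, over 13426 genes and for the azacytidine comparison, 19 of 97 genes changed 2-fold and 62 of 96 changed 4-fold were called, with 0 of 13233 unchanged genes called and 0 in the wrong direction. Poisson counts hold no variation between cultures. Limits for a count of 0 are 3 reads.

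The members, gene lists and rules were chosen with earlier results of these data known. Named in full are called members, those past the fold alone, AARS1, SARS1, KARS1, GARS1, called transcripts and called genes of the other lists. The alternatives were DESeq2 1.42.0 size factors, library totals, other minimums, 2-fold, a pseudocount of 2, uniquely assigned or full-length counts, unhalved counts, length correction and an additive edgeR model. Transcript reads and shares without RARS2 were added after the data were seen.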

Additional observations from a re-analysis of the deposited data

Results flagged for a closer look

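The knockdown log2 ratio of HARS2 was -1.49 without and 1.02 with azacytidine, a difference of 2.51 (adjusted p = 2e-06, exact test of the difference over all tested genes). That of RARS2 was 1.52 without and -0.32 with azacytidine, a difference of -1.83 (adjusted p = 1.58e-10, same exact test). That of CARS2 was -1.08 and 0.26, a difference of 1.34 (adjusted p = 0.0134, same exact test). In transcript reads the ratios were -0.78 and 0.35 for HARS2, -0.06 and -0.23 for RARS2, and -1.73 and -0.31 for CARS2. Each ratio rests on 1 library per group, and the part of reads without a transcript was not tested.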

How the results depend on the processing

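No paired analysis was possible because each group has 1 library. Of 19 cytosolic synthetases, 7 were called with azacytidine under DESeq2 or total scaling, both read minimums, a pseudocount of 2 and length correction; 2 were called at 2-fold, 1 in uniquely assigned and 3 in transcript reads. Over all genes, azacytidine called 297 in uniquely assigned reads, 665 in transcript reads and 3045 in unhalved counts, against 1583; the knockdown called 104 at 2-fold, 17, 16 and 748 in those counts and 12 in the additive model, against 201. Unhalved counts called 2 mitochondrial synthetases (SARS2, EARS2) and 15 amino acid response genes, against 9, of which uniquely assigned reads called 1 and transcript reads 5. The AARS1 exon changed by 19.0 points in uniquely assigned reads, without passing the p, and by 9.92 over gene reads, under the 10 required; it is a description, since the exon met the read minimum through the knockdown libraries alone; full-length reads were too few for a value. The call of its transcript was lost, 0 in place of 1, in full-length and uniquely assigned reads. The smaller knockdown change of the SARS1 exon, 2.93 points in transcript reads, reversed to -0.75 points in full-length reads. For PARS2 the smaller knockdown log2 ratio, 0.71 in gene reads, reversed to -0.17 in transcript reads. Causes were not tested, and transcript, uniquely assigned and full-length reads are also fewer than gene reads. Library totals moved all log2 ratios by up to 0.117 from TMM. Depth limits the genes with few reads, among them 4 mitochondrial synthetases with a mean under 20.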
